A study of Mus musculus with 12 samples.

Results

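Integrins and CD44 were examined in the tumour macrophage libraries: 10 genes of the 24781 rows in the deposited count table, chosen by name as the main integrin subunits of myeloid cells together with the hyaluronan receptor. They comprised the beta2 subunit Itgb2 and its partners Itgam, Itgax and Itgal, the beta1 and alphaV group Itgb1, Itga4, Itga6, Itgav and Itgb5, and Cd44. The rule names genes and sets no threshold on any value, and it was written with earlier results of these data known. All 10 passed the filter on low counts, which kept 9580 genes.

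Each library came from 100 sorted CD45+CD11b+F4/80high macrophages of MC38 tumours, grown from a mouse colon adenocarcinoma line in the skin of wild-type C57BL/6 mice and collected on day 7. All mice in the comparison were wild type. 6 libraries came from mice injected with the solvent DMSO and 6 from mice injected with picrotoxin, a blocker of the GABA-A receptor, so the comparison asked what blocking this receptor did to the macrophages. The injections began before the tumour cells were given and went on every other day. The labels do not tie libraries to mice, and the study's text gives fewer independent mice than libraries for this comparison, although its methods can be read as 1 library per mouse. With fewer mice some libraries share one, and the sources used here do not say which. The n of 6 below counts libraries, and all p-values below, the permutation tests included, are then too small. The whole animal received the compound and picrotoxin also acts on other cells, so the comparison does not isolate the receptor on macrophages.

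Integrins are adhesion receptors made of an alpha and a beta chain that leave the cell's interior as a pair. Itgb2 is the shared beta chain of the leukocyte integrins, which bind ICAM proteins, fibrinogen and complement fragments, and Itgb1 pairs with many alpha chains that bind fibronectin, laminin or VCAM1. Inside the cell talin and kindlins switch integrins on, and Src and Syk family kinases carry their signal. CD44 is a single-chain receptor for hyaluronan, the long sugar chain of the matrix, and is linked to actin through ezrin, radixin and moesin.

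The libraries held 201697 to 309617 molecules, counted through molecular barcodes so that copies of 1 captured molecule count once. A count of 0 allows a share of up to 0.000969% to 0.00149% of a library, the share of 3 molecules, and this floor covers counting error only. Macrophage markers made up 0.824% to 1.14% of molecules with DMSO and 0.969% to 1.103% with picrotoxin. The T and NK cell, B cell, dendritic cell and neutrophil lists each summed to at most 12 molecules in any library, with Cd3e, Flt3 and Ly6g at 0. Endothelial markers summed to at most 19 molecules, with Tek at 0, and epithelial and MC38 markers to at most 21, with Epcam at 0. Of the epithelial list 1 gene was tested, Cdh1, named here after its values were seen, which held 152 of the list's molecules and had 9.62 ± 2.15 normalised molecules (SD, n = 6) with DMSO and 15.7 ± 5.84 (SD, n = 6) with picrotoxin. Its log2 fold change was 0.70 (edgeR unadjusted p = 0.00973, adjusted p = 0.428), and its part in the values of the members was not tested. The platelet list gave 36 to 115 molecules with Itga2b, the platelet integrin chain, at 0. Nearly all were of 1 gene, Pf4, named here after its values were seen, with 667 molecules over all 12 libraries. Of the rest of that list, Gp9 and Gp1ba were also at 0, and Gp1bb had the most, 7. Fibroblast and matrix markers were uneven: DMSO libraries 1 to 6 held 22, 21, 254, 38, 848 and 156 molecules of them and picrotoxin libraries 1 to 6 held 44, 21, 9, 61, 72 and 22. Of the 10 such markers tested, 9 had an unadjusted edgeR p under 0.05 and lower values with picrotoxin, against 4.11% of all genes tested. At an adjusted p under 0.05 the number was 0. The markers share the same libraries, so these calls are not separate evidence. Fewer cells of a type and less RNA per cell cannot be told apart in libraries of pooled cells.

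On GRCm38, the build that mm10 names, Itgam lies on chromosome 7 at 128062640 to 128118491 and Itgax follows it on the same strand at 128129547 to 128150657. Itgal is on chromosome 7 at 127296260 to 127335138, and Itgb2 on chromosome 10 at 77530252 to 77565708. Chromosome 2 carries Itga4 at 79255426 to 79333123, Itga6 at 71745616 to 71858416, Itgav at 83724397 to 83806916 and Cd44, on the minus strand, at 102811141 to 102901665. Itgb1 is on chromosome 8 at 128685654 to 128733200 and Itgb5 on chromosome 16 at 33829665 to 33949338. All 10 are annotated as protein-coding genes, with a longest transcript of 15 to 31 exons. Itgam shares a stretch of 3454 bases at 99.91% identity with Gm49368, an overlapping gene on the same strand with no row in the deposited table, so reads of the 2 cannot be told apart from the sequence there. Itga4 overlaps Cerkl on the opposite strand over 908 bases, and Cerkl had 1 molecule in all 12 libraries. Shorter stretches of Itgb2, Itgb5, Itga6 and Itgav match other annotated genes, mostly pseudogenes and noncoding transcripts and for Itga6 also the protein-coding Gm8113, that have no row in the table, and how such reads were assigned is not given in the sources used here.

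RefSeq start sites on GRCm38.p6 were at hand for 7 of the 10 genes, and the 250 bases before each were searched on both strands for GAGGAA, the core of the binding motif of PU.1, a transcription factor that myeloid cells depend on. The upstream bases of the 3 genes with the smallest p-values are shown, 5′ to 3′ on the gene's strand and with each GAGGAA or its complement TTCCTC in capitals, because Itgam is a textbook PU.1 target and the other genes give a comparison.
Itgam: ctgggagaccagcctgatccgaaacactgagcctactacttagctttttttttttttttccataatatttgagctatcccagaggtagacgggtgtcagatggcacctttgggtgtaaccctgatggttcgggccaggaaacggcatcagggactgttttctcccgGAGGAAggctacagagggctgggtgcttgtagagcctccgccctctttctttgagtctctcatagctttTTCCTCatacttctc
Itga4: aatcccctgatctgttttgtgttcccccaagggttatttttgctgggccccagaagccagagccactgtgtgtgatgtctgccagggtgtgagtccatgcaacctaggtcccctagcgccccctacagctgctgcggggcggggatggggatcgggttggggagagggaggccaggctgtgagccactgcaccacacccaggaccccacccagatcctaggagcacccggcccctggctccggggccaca
Cd44: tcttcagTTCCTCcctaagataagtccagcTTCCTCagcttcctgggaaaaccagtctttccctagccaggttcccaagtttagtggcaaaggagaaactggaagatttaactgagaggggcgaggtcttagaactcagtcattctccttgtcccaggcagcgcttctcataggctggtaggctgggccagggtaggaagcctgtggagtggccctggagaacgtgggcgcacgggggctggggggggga
The Itgam stretch is chr7:128062390-128062639 on the plus strand, the Itga4 stretch chr2:79255176-79255425 on the plus strand and the Cd44 stretch chr2:102901666-102901915 on the minus strand. Itgam held 2 matches, which begin 84 and 15 bases before the start site, and Cd44 held 2, which begin 243 and 220 bases before it. Itga4 had none. Among the other promoters at hand, Itgav held 2 matches, Itgb1 held 1, and Itgax and Itgb5 held none. Of all 32851 RefSeq windows of this length, 23.3% held at least 1 match. A match is a description of the letters and not a bound site.

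With picrotoxin, no member passed the adjusted threshold, and Itga4, Itgam and Cd44 had the smallest p-values, with higher means in the picrotoxin libraries. Over all genes tested, 0.0522% were called at an adjusted p under 0.05 in edgeR, and of the members 0 of 10 were, also in DESeq2 and limma-voom. At an unadjusted p under 0.05 in edgeR, 3 of the 10 members had higher values with picrotoxin, against 3.65% of all genes, and 0 of 10 had lower values, against 4.11%. All 10 members had a mean above 10 normalised molecules. Of the 3741 genes above that mean, fitted alone in edgeR, 205 had higher and 191 lower values at the same threshold, and of the members 3 and 0. The DESeq2 Wald test at an unadjusted p under 0.05, the kind of call the study made, also gave 3 members, against 3.82% of all genes in either direction. The fitted log2 fold change was above 0 for 10 of 10 members, with a median of 0.17, where 49.2% of all genes tested lay above 0 and their median was -0.01. The smallest of the 10, that of Itgav, was 0.00464, and over 24 alternatives the number of members above 0 ranged from 7 to 10. The groups did not overlap for 0 of 10 members and for 0.386% of all genes.

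**Figure D1:**
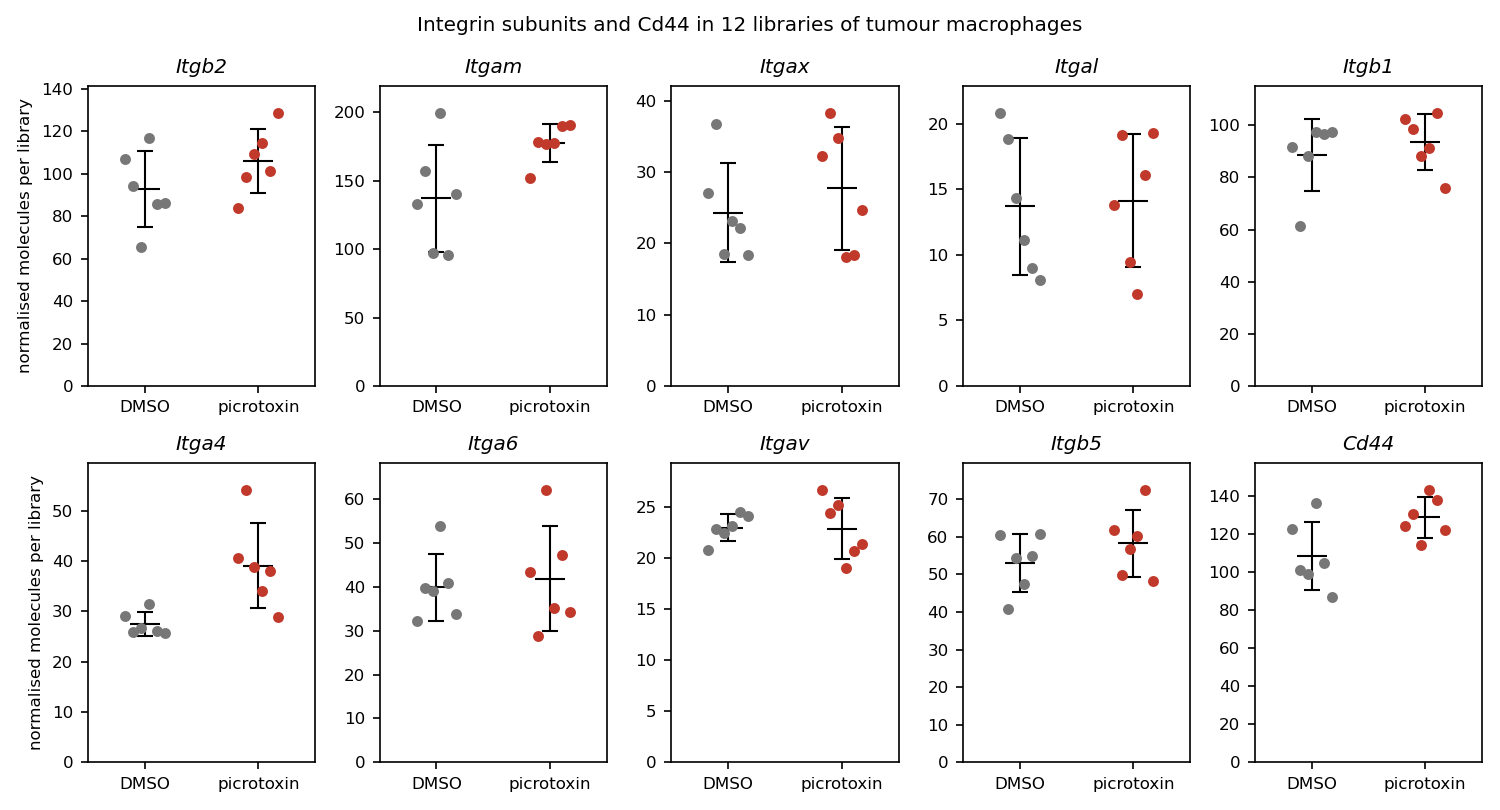
Normalised molecules of each of the 10 genes (y axis, from 0, own scale in each panel) in the 6 DMSO libraries (grey) and the 6 picrotoxin libraries (red), spread from left to right by library number, with the group mean and SD as bars. Itga4 shows 5 of 6 picrotoxin libraries above every DMSO library, whereas the groups overlap widely for Itgal, Itga6 and Itgav.

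Itgam encodes the alpha chain of CD11b/CD18 (Mac-1), the complement receptor of macrophages whose surface protein was also one of the markers used to sort these cells. Its normalised molecules in DMSO libraries 1 to 6 were 133.2, 156.9, 97.3, 199.4, 95.7 and 140.6. In picrotoxin libraries 1 to 6 they were 152.1, 178.4, 176.7, 177.6, 189.8 and 190.7. The picrotoxin values lay close together and all above the DMSO mean, while the DMSO values spread on both sides and included the highest of the 12. The means were 137 ± 39.0 (SD, n = 6) with DMSO and 178 ± 13.95 (SD, n = 6) with picrotoxin, and the DMSO coefficient of variation of 28.4% compares with 8.54% for counting error alone. The log2 fold change was 0.38 with a 95% interval of 0.11 to 0.65, and edgeR gave an unadjusted p of 0.00694 and a Benjamini-Hochberg adjusted p of 0.408.

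The 2 lowest Itgam values belonged to DMSO libraries 3 and 5, the libraries with 254 and 848 fibroblast and matrix marker molecules. Without these 2 libraries the log2 fold change of Itgam was 0.17 (edgeR unadjusted p = 0.146), and with the marker score as a covariate it was 0.22 (edgeR unadjusted p = 0.0706). Without DMSO library 4, which held the highest Itgam value, it was 0.51, with an edgeR adjusted p of 0.0901. The fold change of Itgam moved by more than that of any other member when DMSO libraries 3 and 5 were left out. Leaving out its 2 lowest DMSO values must lower its fold change, and the part of the matrix markers was not tested.

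Itgb2, the beta chain that Itgam, Itgax and Itgal need to reach the surface, ranged in DMSO libraries from 65.6 to 117 normalised molecules with a median of 90.4. In picrotoxin libraries it ranged from 83.9 to 129 with a median of 105. The ranges overlapped over most of their width, and DMSO library 3 was the lowest of the 12. The log2 fold change was 0.20, with an interval of -0.06 to 0.46 and an unadjusted edgeR p of 0.123. In libraries numbered 3 to 6 alone it was 0.37 (edgeR unadjusted p = 0.0140), and without DMSO libraries 3 and 5 it was 0.07 (edgeR unadjusted p = 0.590).

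Itgax encodes CD11c, the alpha chain found on dendritic cells and many tissue macrophages. DMSO libraries spanned 18.3 to 36.7 normalised molecules with a median of 22.6, and picrotoxin libraries 18.1 to 38.2 with a median of 28.5. Both groups reached nearly the same low and high values, and the log2 fold change was 0.22 (interval -0.19 to 0.63, edgeR unadjusted p = 0.285). The libraries numbered 1 and 2 had the higher means in both groups, 31.9 against 20.5 for numbers 3 to 6 with DMSO and 35.2 against 24.0 with picrotoxin, but picrotoxin library 3, at 34.7, exceeded picrotoxin library 1, at 32.3. The labels name no batch for these numbers.

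Itgal encodes CD11a, the alpha chain of LFA-1, which binds ICAM1 and is the main beta2 integrin of lymphocytes. It had the fewest molecules of the members, 8.06 to 20.8 normalised with DMSO (median 12.7) and 7.02 to 19.3 with picrotoxin (median 14.96). The groups covered the same range. The log2 fold change of 0.09 had an interval from -0.45 to 0.63 and an unadjusted edgeR p of 0.737. Changes of moderate size in either direction were thus not detectable with these libraries. The coefficient of variation of Itgal was 38.4% with DMSO and 35.8% with picrotoxin, where counting error alone gives 27.0% and 26.6%.

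Itga4 encodes the alpha chain of VLA-4, which with Itgb1 binds VCAM1 and fibronectin and takes part in monocyte entry into tissue. DMSO libraries 1 to 6 held 29.1, 25.8, 26.6, 31.5, 26.2 and 25.6 normalised molecules. Picrotoxin libraries 1 to 6 held 40.6, 54.2, 38.9, 34.1, 38.0 and 28.9. The DMSO values lay close together, 5 of 6 picrotoxin libraries exceeded all of them, and picrotoxin library 6 fell within the DMSO range. Group means were 27.5 ± 2.36 (SD, n = 6) and 39.1 ± 8.47 (SD, n = 6). The DMSO coefficient of variation, 8.58%, was below the 19.1% that counting error alone gives at this level.

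The log2 fold change of Itga4 was 0.52 with an interval of 0.20 to 0.84, the largest of the 10 members, with an unadjusted edgeR p of 0.00229, rank 70 of 9580, and an adjusted p of 0.312. Without DMSO libraries 3 and 5 it was 0.48 (edgeR unadjusted p = 0.0103), and with the matrix marker score as a covariate 0.46 (edgeR unadjusted p = 0.0119). DMSO library 6, with 156 matrix marker molecules, was kept in both fits. Most matrix markers were lower with picrotoxin, so the covariate fit cannot separate marker molecules from treatment. In libraries numbered 3 to 6 alone the log2 fold change of Itga4 was 0.37 (edgeR unadjusted p = 0.0600). Leaving out 1 library at a time gave 0.40 to 0.59, the lowest without picrotoxin library 2, whose 54.2 normalised molecules were the highest value.

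Itgb1, the beta chain of the fibronectin and laminin receptors, spanned 61.6 to 97.4 normalised molecules with DMSO (median 94.0) and 76.1 to 105 with picrotoxin (median 95.02). DMSO library 2 stood below the other 11 libraries. The log2 fold change was 0.08, with an interval of -0.16 to 0.33 and an unadjusted edgeR p of 0.493.

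Itga6, whose product binds laminin, spanned 32.3 to 53.8 normalised molecules with DMSO (median 39.3) and 28.7 to 62.0 with picrotoxin (median 39.2). The medians nearly coincided and the picrotoxin range enclosed the DMSO range. Its log2 fold change was 0.08 (interval -0.26 to 0.42, edgeR unadjusted p = 0.644).

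Itgav encodes the alphaV chain of vitronectin receptors, which bind RGD motifs and activate latent TGF-beta. It spanned 20.8 to 24.5 normalised molecules with DMSO (median 23.0) and 19.1 to 26.7 with picrotoxin (median 22.9), a group difference near 0. The fitted log2 fold change was 0.00464 (interval -0.33 to 0.34, edgeR unadjusted p = 0.983), and its sign turned under 11 of the 12 alternatives other than leaving out a single library. Itgb5, a beta partner of alphaV, spanned 40.7 to 60.8 with DMSO (median 54.5) and 48.2 to 72.5 with picrotoxin (median 58.5). The groups overlapped, and the log2 fold change was 0.14 (interval -0.13 to 0.41, edgeR unadjusted p = 0.304).

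Cd44 values in DMSO libraries 1 to 6 were 122.8, 101.3, 99.4, 136.4, 104.7 and 87.2 normalised molecules. In picrotoxin libraries 1 to 6 they were 124.4, 130.6, 114.6, 143.5, 138.0 and 122.2. All 6 picrotoxin libraries exceeded the DMSO mean and 4 DMSO libraries lay below every picrotoxin library, while DMSO libraries 1 and 4 fell among the picrotoxin values. Means were 109 ± 17.8 (SD, n = 6) and 129 ± 10.7 (SD, n = 6). The log2 fold change was 0.26 (interval 0.03 to 0.49), with an unadjusted edgeR p of 0.0275 and an adjusted p of 0.571. The 3 DMSO libraries with the most matrix marker molecules, 3, 5 and 6, held 99.4, 104.7 and 87.2 of Cd44, and without libraries 3 and 5 the log2 fold change was 0.21 (edgeR unadjusted p = 0.10002).

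**Figure D2:**
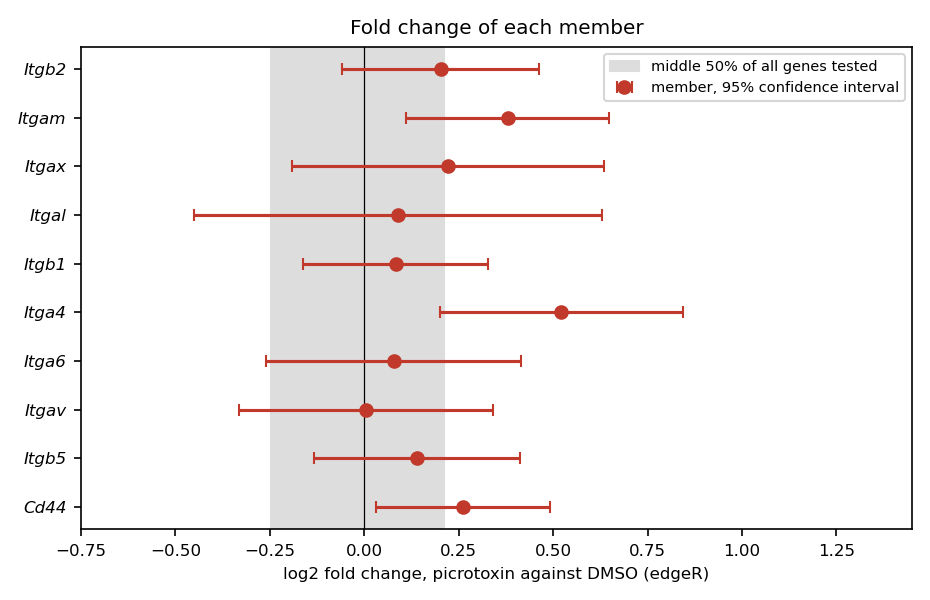
Log2 fold change of picrotoxin against DMSO from edgeR (x axis) for each of the 10 genes (y axis), with 95% confidence intervals as bars and the middle 50% of the fold changes of all genes tested, -0.25 to 0.21, as a grey band. The intervals of Itgam, Itga4 and Cd44 lie above 0, and those of the other 7 members cross it.

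**Figure D3:**
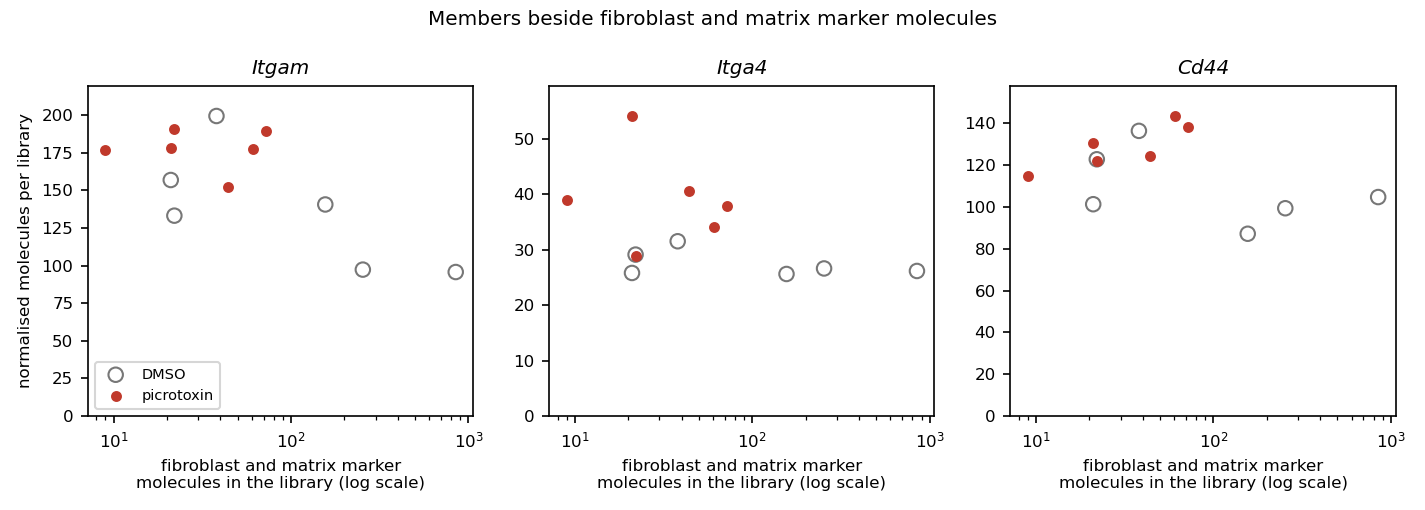
Normalised molecules (y axis, from 0) of Itgam, Itga4 and Cd44 against the summed fibroblast and matrix marker molecules of the library (x axis, log scale) in DMSO (open circles) and picrotoxin libraries (filled circles). The 2 libraries farthest to the right, both DMSO, have the lowest Itgam values, whereas the Itga4 values of the DMSO libraries differ little along the axis. Most of these markers were also lower with picrotoxin, so the covariate fit cannot separate them from treatment. Their part in the difference between the groups was not tested.

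Levels between genes were compared as normalised molecules per kb of the longest annotated transcript, over all 12 libraries. The protocol copies RNA from the poly(A) end after fragmentation, so molecules need not scale with transcript length and the per-kb order applies to this scale only. Undivided by length, the molecules over all 12 libraries were 1926 for Itgam, 1455 for Cd44, 1221 for Itgb2 and 1133 for Itgb1. Itgb5 had 689, Itga6 504, Itga4 407, Itgax 319, Itgav 286 and Itgal 168. By these counts Cd44 stood above Itgb2 and Itgb1, and Itga4 above Itgax, unlike in the per-kb order. Per kb the order was as follows. Itgam and Itgb2 led with 33.6 ± 7.47 and 33.5 ± 5.84 per kb (SD, n = 12), followed by Itgb1 with 23.9 ± 3.15, Cd44 with 21.2 ± 3.13 and Itgb5 with 16.9 ± 2.56. Itga6 stood at 9.47 ± 2.23 and Itgax at 6.43 ± 1.89. Itga4, Itgav and Itgal closed the order with 3.41 ± 0.87, 3.26 ± 0.31 and 2.67 ± 0.94 per kb.

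Within libraries, 4 pairs of neighbours in the per-kb order had a mean log2 ratio per kb smaller than its SD. Per kb, Itgam exceeded Itgb2 in 7 of 12 libraries and Itgb1 exceeded Cd44 in 9 of 12. On the same scale Itga4 exceeded Itgav in 6 of 12 and Itgav exceeded Itgal in 7 of 12. The other 5 neighbours kept their per-kb order in 11 or 12 of 12 libraries. In counts undivided by length, Itgam exceeded Itgb2 in all 12 libraries. The 4 beta2 genes made up 0.116% ± 0.0253 of molecules with DMSO and 0.137% ± 0.0117 with picrotoxin (SD, n = 6 in each group). The 5 beta1 and alphaV genes made up 0.101% ± 0.0100 and 0.108% ± 0.0120 (SD, n = 6 in each group).

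Ratios of chains that pair were taken within each library, since a ratio of 2 genes does not depend on how libraries are scaled to each other. Itga4 per Itgb1 had a mean log2 ratio of -1.66 ± 0.24 (SD, n = 6) with DMSO and -1.27 ± 0.22 (SD, n = 6) with picrotoxin. The picrotoxin value was higher in all 6 libraries than the DMSO mean, the difference was 0.40, and a two-sided exact permutation test over 924 assignments gave p = 0.0130 and 0.0909 after adjustment over the 7 ratios tested, where the smallest possible p is 0.00216. Without DMSO library 2, the difference was 0.48 and the exact permutation p 0.00216, which is the smallest this test can give there, or 0.0152 adjusted. DMSO library 2 had the lowest Itgb1 and the highest DMSO ratio, -1.24, which lay among the picrotoxin values. Across the other libraries left out in turn, the adjusted value stayed above the threshold. Over all 17 alternatives for this ratio, the highest exact permutation p was 0.0571, or 0.4 adjusted.

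Itgam per Itgb2 had a mean log2 ratio of 0.54 ± 0.25 (SD, n = 6) with DMSO and 0.75 ± 0.14 (SD, n = 6) with picrotoxin, a difference of 0.21 with an exact permutation p of 0.110. In the other 5 ratios the difference lay between -0.15 and -0.03 on the log2 scale, with exact permutation p from 0.370 to 0.907. These ratios count transcripts and not surface pairs.

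**Figure D4:**
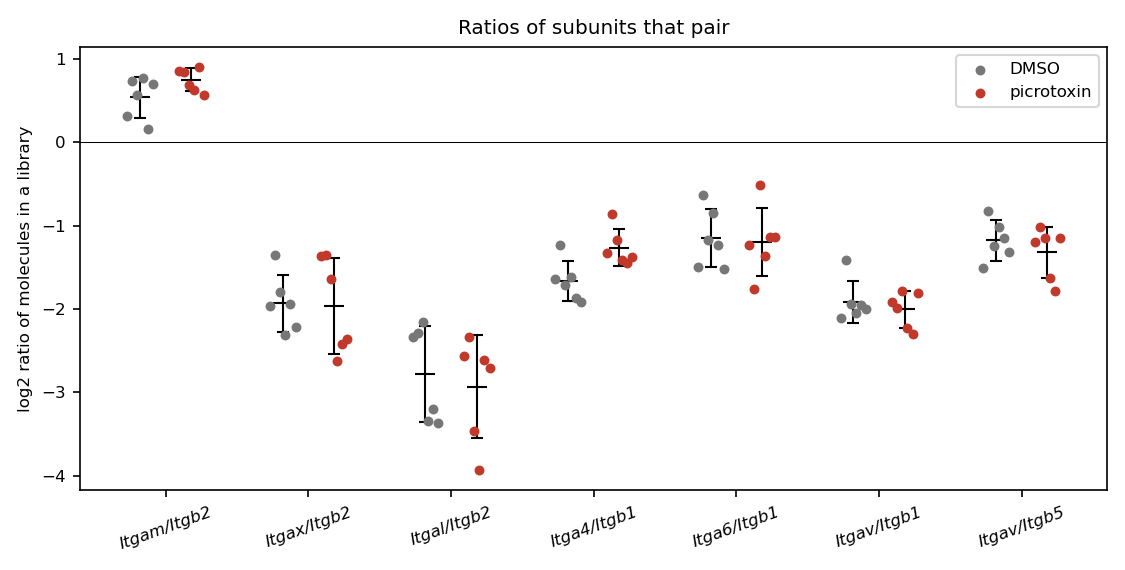
Log2 ratio of the molecule counts of chains that pair (y axis) in each DMSO (grey) and picrotoxin library (red) for the 7 ratios on the x axis, with the group mean and SD as bars. Itga4/Itgb1 sits at -1.91 to -1.24 with DMSO and -1.45 to -0.86 with picrotoxin, and Itgax/Itgb2 and Itgal/Itgb2 scatter over about the same range in both groups.

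Among themselves the members varied in mixed directions once the group means were removed. Over the 12 libraries the 45 pairwise correlations of log2 values ran from -0.58 to 0.76 with a median of 0.07, and 26 were above 0. The highest was between Itgb2 and Itgam, at 0.76, chains of the same receptor, followed by Itgb1 and Itgb5 at 0.71. The lowest was between Itgax and Itgb5. All pairs share the same libraries and depth, and these values are descriptions.

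Of 17 other integrin subunits listed, 7 had no molecule in any library and 3, Itga5, Itga9 and Itgb7, passed the filter, with 176, 119 and 89 molecules over all libraries. Itga5, the fibronectin receptor chain, had 12.1 ± 2.08 normalised molecules (SD, n = 6) with DMSO and 16.8 ± 4.51 (SD, n = 6) with picrotoxin, a log2 fold change of 0.47 with an unadjusted edgeR p of 0.0412 and an adjusted p of 0.622. Itgb3, the other well-known partner of alphaV, had 2 molecules in all 12 libraries, and Itgad, the fourth alpha chain that pairs with Itgb2, had 0.

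Integrin activators and adaptors gave 7 genes of 45 tested with an unadjusted p under 0.05 and higher values with picrotoxin, 1 with lower values and 0 past the adjusted threshold in edgeR, beside 3.65% higher and 4.11% lower among all genes, and their median log2 fold change was -0.01, as was that of all genes tested. Lpxn, encoding the leukocyte paxillin relative leupaxin, had 19.0 ± 4.40 normalised molecules (SD, n = 6) with DMSO and 31.1 ± 2.17 (SD, n = 6) with picrotoxin, and its groups did not overlap. Its log2 fold change was 0.73, with an edgeR adjusted p of 0.0925. The kinases Lyn and Syk, which act downstream of beta2 integrins, had log2 fold changes of 0.44 and 0.45, with unadjusted edgeR p-values of 0.000962 and 0.0162. Flna, an actin crosslinker that binds integrin tails, stood at 0.28 and Fyb, the adaptor ADAP, at 0.26, with unadjusted edgeR p-values of 0.0214 and 0.0372. Parva, a focal adhesion protein of mesenchymal cells, was the 1 lower gene, with 2.44 ± 1.95 against 0.321 ± 0.498 normalised molecules (SD, n = 6 in each group).

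Of the integrin ligands, 19 of 32 were tested, 2 had higher and 5 lower values with picrotoxin at an unadjusted p under 0.05 (3.65% and 4.11% of all genes), and 0 passed the adjusted threshold in edgeR. Icam1, the ligand of LFA-1 and Mac-1, had 16.5 ± 1.69 normalised molecules (SD, n = 6) with DMSO and 22.5 ± 4.42 (SD, n = 6) with picrotoxin, a log2 fold change of 0.46 with an unadjusted edgeR p of 0.0178. The other higher gene, C3, whose fragment iC3b binds Mac-1, was chosen for mention after its values were seen and had a log2 fold change of 0.54 (edgeR unadjusted p = 0.0262). The 5 lower genes were Col3a1, Cyr61, Col1a1, Col1a2 and Lamb1, with log2 fold changes of -2.57, -4.28, -5.50, -3.28 and -1.90. They are matrix genes, 3 of them in the fibroblast and matrix marker list whose molecules were concentrated in DMSO libraries 3, 5 and 6.

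Of 27 CD44 and hyaluronan partners, 18 were tested, 1 had higher and 1 lower values at an unadjusted p under 0.05 (3.65% and 4.11% of all genes), and 0 passed the adjusted threshold in edgeR. Cd74, the invariant chain that forms the MIF receptor with CD44, had a log2 fold change of 0.29 (edgeR unadjusted p = 0.0341). Vcan, a hyaluronan-binding proteoglycan, had 11.5 ± 8.69 normalised molecules (SD, n = 6) with DMSO and 5.41 ± 4.15 (SD, n = 6) with picrotoxin, a log2 fold change of -1.06 (edgeR unadjusted p = 0.0158). The hyaluronan synthases Has1 and Has3 had no molecule in any library and Has2 had 3.

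**Figure D5:**
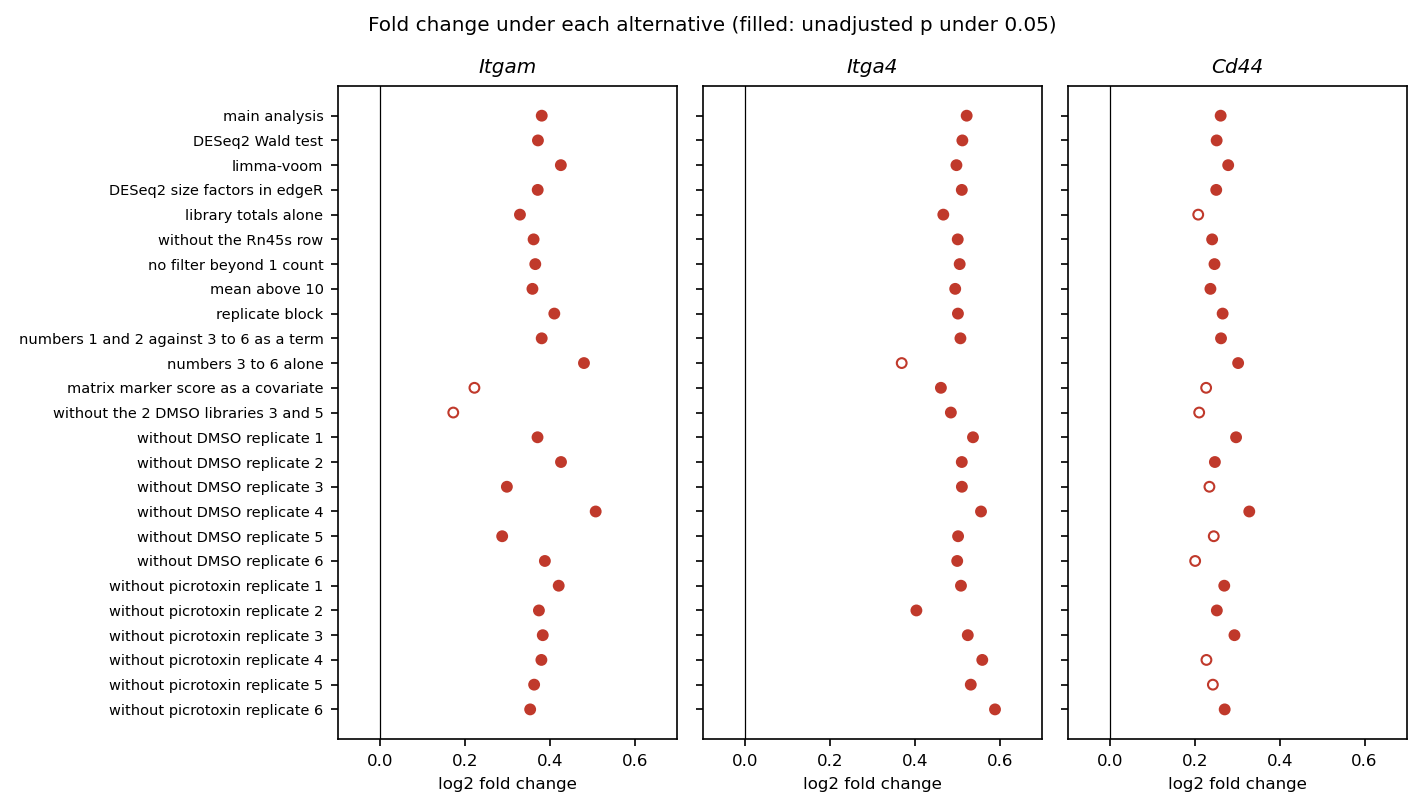
Log2 fold change of Itgam, Itga4 and Cd44 (x axis) in the main analysis and under 24 alternatives (y axis), filled where the unadjusted p was under 0.05. Itgam ranges from 0.17 to 0.51, Itga4 from 0.37 to 0.59 and Cd44 from 0.20 to 0.33, and all values lie above 0.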

How the data were processed

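RNA of 100 sorted macrophages per sample was primed with oligo-dT carrying molecular barcodes after heat fragmentation. The authors aligned the reads to mm10 with STAR, as the submitters' processing notes also name, and deposited molecule counts per gene symbol; the use of strand and the treatment of reads that match several genes are not given in the sources used here. All 12 libraries, 6 for each group, were used, and 9580 genes with a mean above 1 normalised molecule (divided by DESeq2 size factors) were tested with edgeR 4.0.16 (TMM scaling, quasi-likelihood test, Benjamini-Hochberg over all genes tested, threshold 0.05). DESeq2 1.42.0 and limma 3.58.1 gave alternatives, run in R 4.3.3. Scripts were tested on simulated data. Ratios used a pseudocount of 0.5 on each count. Gene positions came from GENCODE and start sites from RefSeq.

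The members and gene lists were chosen with earlier results of these data known. Named genes were all members and, from each list that is not of cell markers, up to 6 genes with the smallest unadjusted p under 0.05. The study's text gives fewer independent mice than libraries and the labels do not tie libraries to mice, so libraries were treated as samples, and p-values measure the spread between libraries, which may be partly technical, and are too small where libraries share a mouse. Of the 30 pairs of libraries within a group, each differed by more than sampling noise, with a chi-square per degree of freedom of 1.23 to 3.15. Rn45s, a ribosomal RNA row, took 7.37% to 15.2% of molecules.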

Additional observations from a re-analysis of the deposited data

Results flagged for a closer look

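Values far from the rest of their group were sought in the 10 members and the 7 ratios, 34 groups of 6 libraries in all, of which chance flags about 1 in 20, or 1.7. There were 3. Itgam in picrotoxin library 1, at 152 normalised molecules, lay below the other 5 picrotoxin libraries, which held 177 to 191. Itgb1 in DMSO library 2, at 61.6, lay below the other 5 DMSO libraries, which held 88.1 to 97.4. The log2 ratio of Itgav to Itgb1 in the same library was -1.41, above the -2.11 to -1.94 of the other DMSO libraries.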

How the results depend on the processing

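No member passed the adjusted threshold under any of 24 alternatives, and the log2 fold changes of Itgam, Itga4, Cd44, Itgb2 and Itgb5 stayed above 0 in all of them. The members with an unadjusted p under 0.05, 3 in the main analysis, numbered 1 (Itga4) with the matrix marker score as a covariate and 1 (Itga4) without DMSO libraries 3 and 5, and 2 to 4 with a library left out in turn: Cd44 dropped out without DMSO 3, 5 or 6 or picrotoxin 4 or 5, and Itgb2 joined without DMSO 4. With library totals Cd44 dropped out, leaving 2, and in numbers 3 to 6 alone Itgb2 took the place of Itga4. The cause was not tested. Signs turned as follows. With the covariate, Itgax was -0.028 and Itgal -0.13, and without DMSO libraries 3 and 5 Itgal was -0.014. In numbers 3 to 6 alone Itgb1 was -0.059 and the Itga6/Itgb1 ratio 0.16. Itgav was -0.00657 with DESeq2, -0.000377 with limma-voom, -0.00679 with DESeq2 size factors, -0.051 with library totals, -0.017 without Rn45s, -0.012 without a filter, -0.023 for means above 10, -8.90e-05 with a term for numbers 1 and 2, -0.11 in numbers 3 to 6 alone and -0.00406 with the covariate. With single libraries left out, the ranges were -0.042 to 0.24 for Itgal, -0.067 to 0.17 for Itga6, -0.050 to 0.054 for Itgav, -0.15 to 0.10 for Itgax/Itgb2, -0.27 to 0.046 for Itgal/Itgb2, -0.18 to 0.072 for Itga6/Itgb1, -0.14 to 0.00489 for Itgav/Itgb1, and 0 to 1 for the ratios past the adjusted threshold (Itga4/Itgb1, without DMSO 2).

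The labels tie same-numbered libraries by their number only. Their deviations correlated at -0.02 to 0.05, and 0 of 12 libraries correlated best with their own number. Whether libraries with the same or neighbouring numbers share a batch was not tested. With the replicate block, 43 genes passed the adjusted threshold against 5 in the main analysis, members with an unadjusted p under 0.05 again numbered 3, and Itgav was -0.000157. A term for numbers 1 and 2 against 3 to 6 gave 27 genes past the adjusted threshold. Over all alternatives the genes past the adjusted threshold numbered 0 to 81. With library totals, 220 genes had higher and 526 lower values at an unadjusted p under 0.05, against 350 and 394, and the median fold change of all genes was -0.06. Depth limits Itgal most, at 7 to 20 molecules a library.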
